A study of Mus musculus with 2 samples.

Results

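Cytochrome P450 (CYP) enzymes of families 1 to 4 were taken as every gene whose symbol has the form Cyp, a family digit from 1 to 4, a subfamily letter and a number. This gave 72 of the 19059 genes on the probe panel. Symbols with a further letter after the number, such as Cyp4a12a, did not match and are in neither the 72 nor the subfamily sums. Single-cell libraries of fixed liver cells had been made from 2 groups of mice on a C57BL/6J background, with 1 library in each. AEG-1fl/fl mice carried floxed alleles of AEG-1 (gene Mtdh) and no Cre. AEG-1DMAC mice were their littermates and carried the same floxed alleles with a LysM/Cre transgene, which deletes AEG-1 in myeloid cells, so Kupffer cells, other macrophages and neutrophils were the targets and hepatocytes were not. Both groups had been fed a high-fat/high-sugar diet (HF/HSD) from the age of 7 weeks for 20 weeks, and livers were taken at 27 weeks. The labels give neither the sex of the mice behind a library nor whether a library pooled livers. With 1 library in each group there is no replicate, so every difference between the libraries is given as a description of those libraries, without a test.

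CYP enzymes are heme proteins of the endoplasmic reticulum that insert 1 atom of oxygen into their substrates with electrons passed on by P450 oxidoreductase (Por). CYP1 enzymes are known as targets of the aryl hydrocarbon receptor, CYP2B enzymes of the constitutive androstane receptor, CYP3A enzymes of the pregnane X receptor and CYP4A enzymes, which hydroxylate the omega end of fatty acids, of PPARA. Hepatocytes hold most of these enzymes, and many are zonated along the liver lobule: drug and alcohol oxidation is known to be concentrated around the central vein (pericentral, PC), and gluconeogenesis and urea synthesis around the portal triad (periportal, PP).

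The library labelled AEG-1DMAC held 2581 barcodes and 79589511 molecule counts, and the library labelled AEG-1fl/fl held 3535 barcodes and 90440089 counts, with 10 barcode sequences found in both. Cells were assigned to types by fixed marker genes that included no Cyp gene, which gave 1261 and 1317 hepatocyte-like cells with 59943608 and 64435587 counts (called hepatocytes from here on, as the other types are called by their names). The other 7 types compared held 20 to 223 cells in the library labelled AEG-1DMAC and 43 to 618 in the library labelled AEG-1fl/fl. Of the remaining cells, 631 and 761 met the limits of no type, by weak marker scores or by markers of more than 1 type, and were left out. Mtdh, the targeted gene, went against the labels: it had 265 counts (114.5 CPM) in macrophages of the library labelled AEG-1DMAC and 145 counts (25.6 CPM) in those labelled AEG-1fl/fl, a log2 ratio of 2.16 (95% interval 1.87 to 2.47). Macrophages made up 223 of 2571 kept cells in the library labelled AEG-1DMAC and 618 of 3508 in the library labelled AEG-1fl/fl. The probe position relative to the floxed part was not known and an exchange of labels was not tested, so groups follow the labels as given, and each is written as the library labelled so. CPM are the counts of a gene relative to all counts of the cell type, where 10000 CPM equal 1% of them. They rest on probe pairs and are not scaled to transcript length, so they order genes by counts and not by transcripts.

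Of the 72 CYP genes, 55 had at least 20 summed counts in hepatocytes, 5 had 1 to 19 (Cyp2j13, Cyp4a29, Cyp2g1, Cyp4f40 and Cyp2c69) and 12 had none (Cyp2b19, Cyp2b23, Cyp2c65, Cyp2c66, Cyp2j7, Cyp2j11, Cyp2j12, Cyp2t4, Cyp2w1, Cyp3a16, Cyp4f37 and Cyp4x1). Together they took up 11813 CPM in hepatocytes of the library labelled AEG-1DMAC and 10146 CPM in those of the library labelled AEG-1fl/fl, or 1.18% and 1.01% of all counts. A few genes dominated: Cyp2e1, which oxidizes ethanol and other small molecules, made up 32.6% and 27.9% of the CYP counts, the top 5 genes 66.1% and 63.5% and the top 12 genes 84.9% and 82.3%. The level of Cyp2e1 was 3850.1 CPM in the library labelled AEG-1DMAC and 2828 CPM in the library labelled AEG-1fl/fl. Cyp3a11, a main oxidizer of drugs and steroids, followed with 1551 and 1366 CPM, and Cyp2d26 with 1259 and 1093 CPM. Cyp2f2, which activates naphthalene, was at 663 and 739 CPM. Cyp2j5, an epoxygenase of arachidonic acid, was at 491 and 420.5 CPM. The other 7 of the top 12 were Cyp2c29 (559.7 and 164 CPM), Cyp2d22 (361 and 328 CPM), Cyp4a10 (218 and 393 CPM), Cyp2c70 (314 and 255 CPM), Cyp2d9 (246 and 303 CPM), Cyp2d10 (239.9 and 247 CPM) and Cyp4f15 (275 and 210.3 CPM).

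By subfamily, CYP2E and CYP2F summed to 4513 and 3567 CPM in the libraries labelled AEG-1DMAC and AEG-1fl/fl, CYP2D to 2167 and 2029.9 CPM, CYP3A to 1669 and 1493 CPM and CYP2C to 1338 and 914 CPM. CYP2J, with 562 and 497 CPM, CYP4A, with 491 and 778 CPM, and CYP4F, with 415 and 393 CPM, formed a middle group. CYP1 held 273 and 134 CPM, nearly all from Cyp1a2, and CYP2A 118 and 84.2 CPM. CYP2B was the smallest, at 20.9 CPM in the library labelled AEG-1DMAC and 1.91 CPM in the library labelled AEG-1fl/fl.

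CYP transcripts were compared between hepatocytes and 7 other cell types that had at least 20 cells in each library, to see which CYP genes belong to nonparenchymal cells. In edgeR's quasi-likelihood test with Benjamini-Hochberg adjustment over 12227 genes, 38 of the 72 CYP genes passed the filter on low counts, which made 266 pairs of a gene and a cell type. A pair was lower than in hepatocytes 214 times, higher 13 times and passed neither way 39 times. In macrophages 33 of the 38 genes were lower and 2 higher, against 29.1% and 29.9% of all genes. In endothelial cells 32 were lower and 3 higher (26.7% and 30.6% of all genes) and in stellate cells also 32 and 3 (24.2% and 28.8%). In cholangiocytes 31 were lower and 2 higher (21.4% and 26.7%), in T or NK cells 30 and 0 (24.6% and 24.9%, and 0 higher also at an unadjusted p under 0.05), in B cells 25 and 1 (19.1% and 13.9%) and in dendritic cells 31 and 2 (21.9% and 23.3%). Scaling by totals and not by TMM factors put the median of all genes at 0.33 to 0.88 on the log2 scale, depending on the type, and gave 17 higher and 189 lower pairs. The 13 higher pairs came from 5 genes: Cyp4f18, Cyp4f16, Cyp4b1, Cyp1b1 and Cyp2s1.

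Cyp4f18, which hydroxylates leukotriene B4 in myeloid cells, was at 26.4 CPM (61 counts) and 46.9 CPM (266 counts) in macrophages of the libraries labelled AEG-1DMAC and AEG-1fl/fl, against 0.801 and 0.962 CPM in hepatocytes, a fitted log2 difference of 4.81 ± 0.33 (SE; edgeR adjusted p = 2.8e-14). In B cells it reached 114 and 145 CPM from 13 and 20 counts, 6.44 ± 0.50 above hepatocytes on the log2 scale (edgeR adjusted p = 1.7e-12). In dendritic cells the difference was 3.62 ± 0.84 (edgeR adjusted p = 0.0006), from only 2 and 5 counts. Cyp4f16 was higher than in hepatocytes in 5 types, most in dendritic cells by 2.61 on the log2 scale (edgeR adjusted p = 0.0023; 6 and 4 counts) and in macrophages by 2.19 ± 0.33 (edgeR adjusted p = 7.6e-07; 11.2 and 24.0 CPM). The other 3 types for Cyp4f16 were stellate cells (1.55, adjusted p = 0.0027), cholangiocytes (1.53, adjusted p = 0.0081) and endothelial cells (1.22 ± 0.44, adjusted p = 0.018), all from edgeR. The endothelial call was lost when the library was left out of the fit (edgeR adjusted p = 0.0629).

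Cyp4b1, known for oxidizing medium-chain fatty acids, had the largest fitted difference of any CYP gene between endothelial cells and hepatocytes. It was at 605 CPM (868 counts) in the library labelled AEG-1DMAC and 853 CPM (1159 counts) in the library labelled AEG-1fl/fl, against 10.5 and 4.87 CPM in hepatocytes. The fitted log2 difference was 6.02 ± 0.28 (edgeR adjusted p = 1.4e-18). In stellate cells Cyp4b1 was also above hepatocytes, by 1.30 (edgeR adjusted p = 0.0011; 31.9 and 20.8 CPM). Cyp1b1, which hydroxylates estrogens and is found mostly outside hepatocytes, was at 70.7 and 118 CPM in stellate cells (62 and 226 counts), 6.98 ± 0.34 above hepatocytes on the log2 scale (edgeR adjusted p = 1.8e-17). In endothelial cells Cyp1b1 stood at 17.4 and 19.1 CPM (log2 difference 4.49 ± 0.39, edgeR adjusted p = 3.3e-11). Cyp2s1, an epithelial CYP, was at 27.9 and 17.8 CPM in cholangiocytes from 10 and 21 counts, against 0.167 and 0.202 CPM in hepatocytes (log2 difference 5.96 ± 0.68, edgeR adjusted p = 9.8e-09). No tested CYP2A, CYP2B, CYP2C, CYP2D, CYP2J or CYP3A gene was called higher in any of the 7 types. Only 38 of the 72 CYP genes were tested, and Cyp2b9 was the only CYP2B gene among them. By plain CPM, not scaled by TMM factors, Cyp2j6 was higher in cholangiocytes (114 and 96.7 CPM) than in hepatocytes (52.8 and 57.7 CPM). Its fitted log2 difference was 0.08 (edgeR adjusted p = 0.797).

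**Figure D1:**
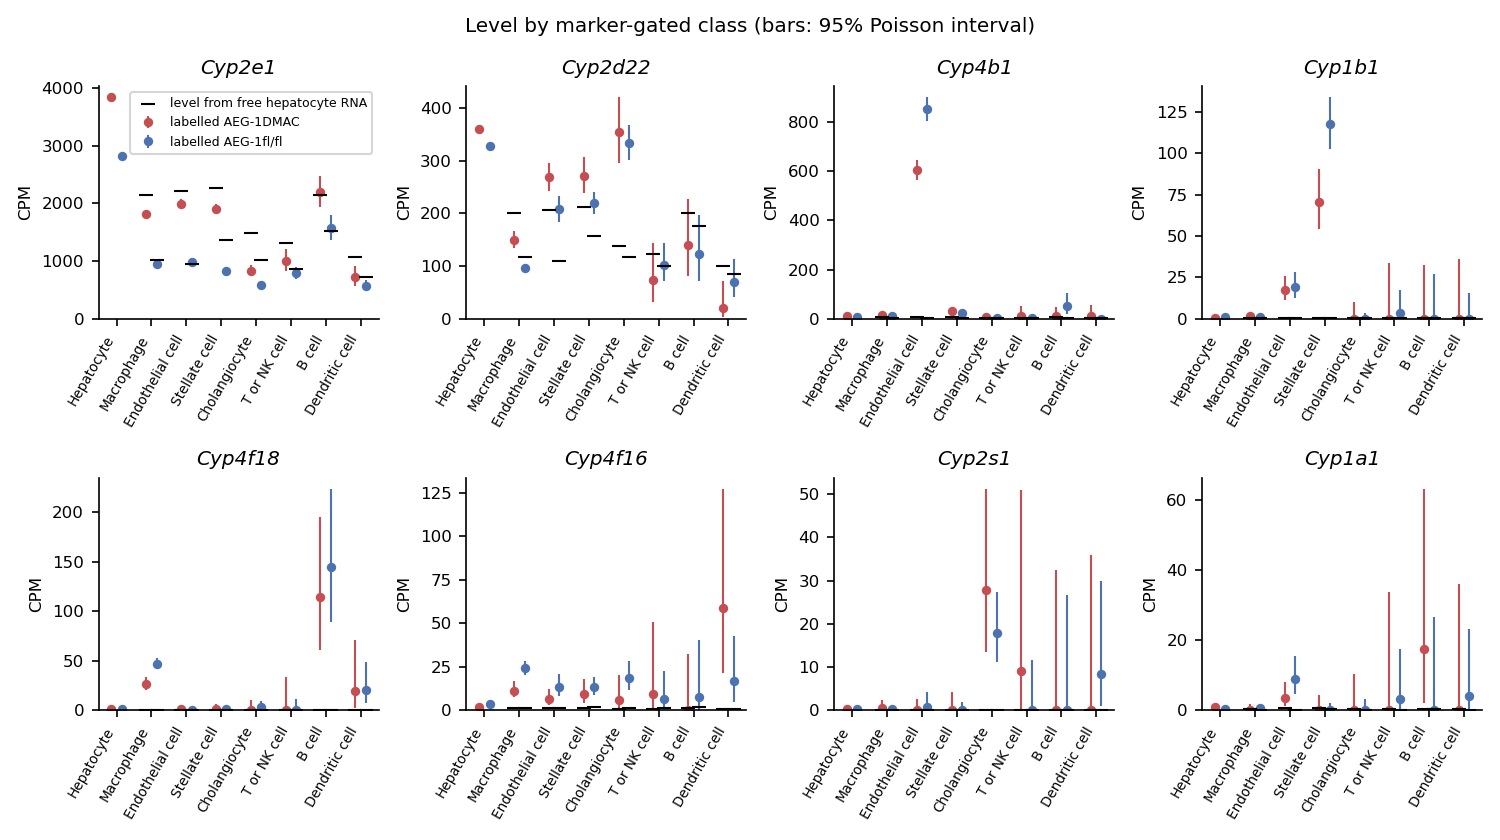
Levels of 8 CYP genes (vertical axis, CPM, linear) in hepatocytes and 7 other cell types, with 1 point per library, the 95% Poisson interval as a bar and a dash at the level that free hepatocyte RNA would give. Cyp4b1 stands at 605 and 853 CPM in endothelial cells and Cyp1b1 at 70.7 and 118 CPM in stellate cells, both above hepatocytes, while Cyp2e1 in macrophages, at 1812 and 947 CPM, is below its level in hepatocytes.

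Hepatocyte RNA was present in every cell type. The 12 hepatocyte markers, such as Alb and Apoa1, summed in macrophages to 55.8% and 35.7% of their level in hepatocytes in the libraries labelled AEG-1DMAC and AEG-1fl/fl, and in the 7 types they ranged from 25.7% to 58.8%. The CYP genes together stood at 49.4% and 34.1% of their hepatocyte level in macrophages, 59.3% and 43.4% in endothelial cells and 52.1% and 37.3% in stellate cells. In the other types they stood at 31.1% and 34.4% (cholangiocytes), 27.2% and 27.8% (T or NK cells), 58.9% and 51.7% (B cells) and 24.5% and 19.7% (dendritic cells). In cholangiocytes and T or NK cells the CYP share was thus the lower one in the library labelled AEG-1DMAC, where the marker share was the higher one (38.5% and 35.9%, and 34.0% and 30.7%). Cyp2e1 had 1812 and 947 CPM in macrophages, where free hepatocyte RNA at the share of the markers would give 2147 and 1011 CPM. How much of such levels is background and how much is expression of the cell type itself was not tested. For the 64 CYP genes with a count in any typed cell, the counting interval of the level was set against the level from free RNA. In both libraries it lay above for 7 in macrophages, 7 in endothelial cells, 4 in stellate cells and 7 in cholangiocytes. In dendritic, B and T or NK cells 2, 1 and 0 lay above. Below free RNA in both libraries lay 15 in macrophages, 6 in endothelial cells, 10 in stellate cells and 8 in cholangiocytes. In dendritic, B and T or NK cells 1, 2 and 2 lay below. The share over all genes was not computed. Cyp2d22 lay above free RNA in cholangiocytes, endothelial cells and stellate cells without being called above hepatocytes. It was at 354 and 334 CPM in cholangiocytes, where free RNA would give 139 and 118 CPM. In endothelial cells Cyp2d22 was at 268 and 207 CPM (207 and 110 CPM from free RNA) and in stellate cells at 271 and 219 CPM (212 and 158 CPM). Cyp1a1, the inducible partner of Cyp1a2, had 5 and 12 counts in endothelial cells, 3.49 and 8.83 CPM, against 0.451 and 0.114 CPM from free RNA.

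Zonation was the next question. Hepatocytes of each library were ordered by a score from 11 PC markers, such as Glul and Axin2, and 10 PP markers, such as Hal and Cps1, none of them a Cyp gene, and cut into 3 zones of equal cell number, of which the PC and PP zones were compared. These held 420 and 421 cells of the library labelled AEG-1DMAC and 439 and 439 of the library labelled AEG-1fl/fl. Depth moved with the zone, since the median cell had 20934.5 and 22227 counts in the PC zone and 29733 and 26624 in the PP zone, and its part in the calls was not tested. The fit had 4 sums with the library as a block and 1 residual degree of freedom, so its calls lean on the spread shared across genes. The test called 19.9% of 12057 genes at an edgeR adjusted p under 0.05, 9.94% higher in the PC zone and 9.98% higher in the PP zone. Of the 72 CYP genes, 50 passed the filter on low counts, and Cyp2b13, Cyp2j8, Cyp2s1, Cyp3a57 and Cyp4f39 were left out beside the 17 genes with fewer than 20 counts. Of the 50, 21 were higher in PC hepatocytes, 12 were higher in PP hepatocytes and 17 did not pass the test. By plain CPM, all 33 called genes had the same sign in each library on its own. With the library left out of the fit, 10 and 3 CYP genes were called. The direction of 3 genes that were not called, Cyp2j6, Cyp4a31 and Cyp2d22, turned when the sums were scaled by their totals and not by TMM factors, a change that moved the median of all genes by 0.18 on the log2 scale, the calls over all genes from 1198 PC and 1203 PP to 3400 and 704, and the CYP calls to 27 and 11. Differences are therefore relative to the bulk of genes. A fitted difference of at least 4-fold was seen for 15 of the 50 tested CYP genes, all of them called, and for 2.27% of all genes. Of the 21 PC genes 16 differed by at least 2-fold and 13 by at least 4-fold, and of the 12 PP genes 3 and 2 did.

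**Figure D2:**
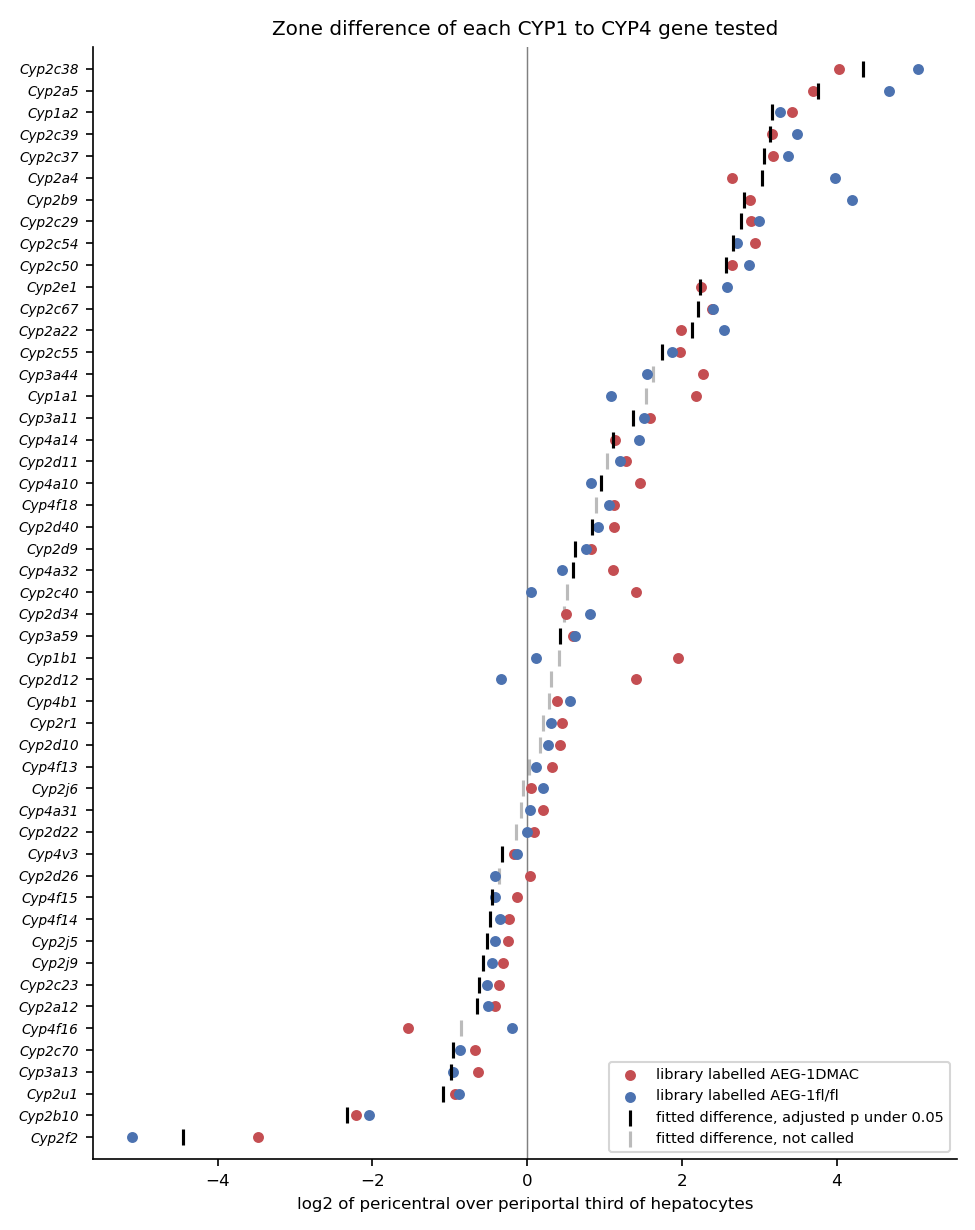
Log2 ratio of PC over PP hepatocytes (horizontal axis) for each of the 50 tested CYP genes in order of the fitted ratio, with 1 point per library and a tick for the fit, black where called and gray where not. Points are ratios of plain CPM and ticks are scaled by TMM factors, which lowers the ratio of the median gene by 0.18, so a tick may lie outside both points. The order runs from Cyp2c38 at 4.35 to Cyp2f2 at -4.45, and the points of the libraries lie on opposite sides of 0 for Cyp2d26, at 0.04 and -0.41, as they do for Cyp2d12 and, by a small margin, Cyp2d22.

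Cyp2e1 was at 6921 and 5281 CPM in PC hepatocytes and at 1456 and 885 CPM in PP hepatocytes of the libraries labelled AEG-1DMAC and AEG-1fl/fl. The fitted log2 ratio was 2.23 ± 0.11 (edgeR adjusted p = 3.17e-06). Cyp1a2, which oxidizes caffeine and aromatic amines, had 674 and 315 CPM in PC and 62.7 and 32.6 CPM in PP hepatocytes, with a log2 ratio of 3.17 ± 0.08 (edgeR adjusted p = 1.95e-07). Both libraries showed both gradients, with log2 ratios of plain CPM, not scaled by TMM factors, of 2.25 and 2.58 for Cyp2e1 and 3.43 and 3.27 for Cyp1a2. For both genes each PC value was above both PP values, so the zones did not overlap.

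The steepest PC gene was Cyp2c38, a CYP2C family member, at 190.4 and 269.5 CPM in PC against 11.6 and 8.15 CPM in PP hepatocytes, a log2 ratio of 4.35 ± 0.20 (edgeR adjusted p = 2.38e-06). Cyp2a5, the mouse coumarin 7-hydroxylase, had 21.1 and 7.65 CPM in PC and 1.63 and 0.299 CPM in PP hepatocytes (log2 ratio 3.76 ± 0.22, edgeR adjusted p = 8.28e-06). Cyp2a4, a testosterone 15-alpha-hydroxylase, followed with a log2 ratio of 3.03 ± 0.24 (edgeR adjusted p = 6.39e-05), from 204 and 135 CPM in PC to 32.6 and 8.56 CPM in PP hepatocytes. Cyp2c39, Cyp2c37 and Cyp2c29, known to oxidize retinoic acid or arachidonic acid, had log2 ratios of 3.13 ± 0.25, 3.06 ± 0.10 and 2.76 ± 0.08. Cyp2b9 was at 40.8 and 2.74 CPM in PC and 5.56 and 0.150 CPM in PP hepatocytes, a log2 ratio of 2.80 ± 0.17 (edgeR adjusted p = 1.36e-05), although its level differed widely between the libraries. Cyp3a11 was PC with a smaller ratio of 1.37 ± 0.08 on the log2 scale (edgeR adjusted p = 1.11e-05), from 2442 and 2099.8 CPM to 813 and 738 CPM. Cyp4a10 was PC by 0.95 ± 0.13 on the log2 scale (edgeR adjusted p = 0.00153) and Cyp2d9 by 0.61 ± 0.07 (edgeR adjusted p = 0.000562). The other 9 PC genes had fitted log2 ratios between 0.42 (Cyp3a59) and 2.65 (Cyp2c54).

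Cyp2f2 had the steepest PP gradient. It was at 109 and 44.4 CPM in PC and at 1214 and 1522 CPM in PP hepatocytes, with log2 ratios of -3.48 and -5.10 in the libraries labelled AEG-1DMAC and AEG-1fl/fl and a fitted log2 ratio of -4.45 ± 0.34 (edgeR adjusted p = 4.57e-05). Cyp2b10, the classical target of the constitutive androstane receptor, was also PP, at 1.03 and 0.355 CPM in PC against 4.80 and 1.46 CPM in PP hepatocytes (log2 ratio -2.33 ± 0.30, edgeR adjusted p = 0.000897). The 2 tested CYP2B genes therefore lay on opposite sides, with Cyp2b9 PC and Cyp2b10 PP, and neither was called with the library left out of the fit. The Cyp2b10 call rests on 18 and 7 counts in PC and 121 and 39 counts in PP hepatocytes. Up to 23 and 15 of its hepatocyte counts lay in 1 cell. Cyp2b13, which was not tested, had 45 and 5 counts in PC and 1 and 0 counts in PP hepatocytes. Cyp2u1, a long-chain fatty acid hydroxylase, was PP by -1.08 ± 0.06 (edgeR adjusted p = 9.95e-06), Cyp3a13 by -0.98 ± 0.09 (edgeR adjusted p = 0.00013) and Cyp2c70, which makes muricholic acids in mice, by -0.95 ± 0.08 (edgeR adjusted p = 8.33e-05). The remaining PP genes named had shallow gradients: Cyp2a12 -0.65 ± 0.13, Cyp2c23 -0.63 ± 0.07 and Cyp2j9 -0.57 ± 0.09 on the log2 scale. Cyp2j5 was PP by -0.51 ± 0.08 (edgeR adjusted p = 0.00254), and the other 3 PP genes lay between -0.48 (Cyp4f14) and -0.33 (Cyp4v3).

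**Figure D3:**
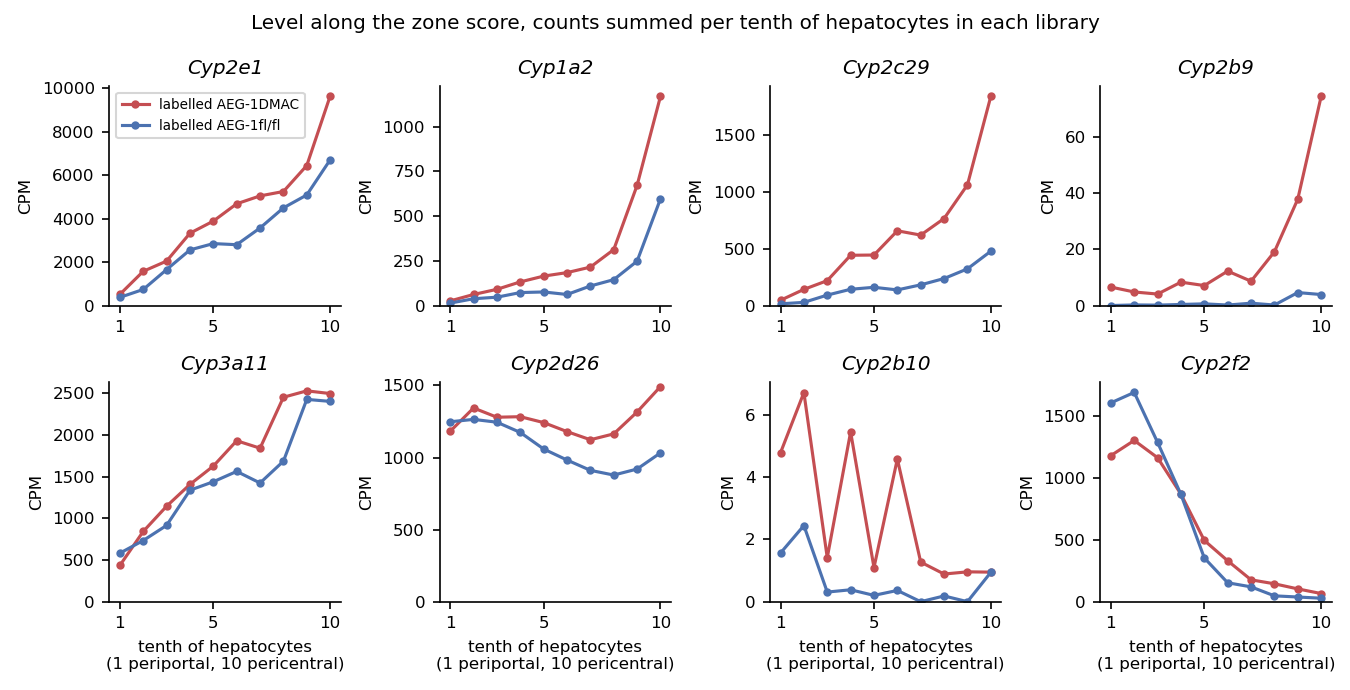
CPM of 8 CYP genes (vertical axis) over 10 bins of hepatocytes ordered by the zone score, from PP at bin 1 to PC at bin 10, with 1 line per library. Cyp2e1 and Cyp1a2 climb towards the PC end in both libraries and Cyp2f2 falls, from 1214 and 1522 CPM in the PP zone to 109 and 44.4 CPM in the PC zone.

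Within subfamilies the zones were mixed. CYP2C had 8 PC genes, 2 PP genes and 1 not called of 11 tested, and CYP2A had 3 PC and 1 PP of 4. CYP3A had 2 PC, 1 PP and 1 not called, and CYP4A 3 PC and 1 not called with a median log2 ratio of 0.77. CYP2D had 2 PC genes and 6 not called of 8. No CYP2J or CYP4F gene was called PC by edgeR, also not at an unadjusted p under 0.05, with 2 of 3 and 2 of 5 called PP. Among genes not called, Cyp2d26 was at 1301 and 930.5 CPM in PC and 1265 and 1239.7 CPM in PP hepatocytes (log2 ratio -0.37 ± 0.11, edgeR adjusted p = 0.0542). Cyp2d22, Cyp2d10 and Cyp4f13 had log2 ratios of -0.14 ± 0.07, 0.17 ± 0.07 and 0.03 (edgeR adjusted p = 0.235, 0.173 and 0.856), and Cyp2j6 and Cyp2r1, the vitamin D 25-hydroxylase, -0.06 and 0.21 (0.628 and 0.173). Over the 20 bins of both libraries, the profile nearest to that of Cyp2e1 by Pearson's correlation of log2 CPM, among 8319 genes with at least 1000 hepatocyte counts, was Cyp2c29 (0.994), followed by Aldh3a2 (0.990) and Plbd1 (0.987). For Cyp2f2 these were Hsd11b1 (0.991), Gls2 (0.984), which is a marker of the zone score, and Gldc (0.983). Bins of a library share its depth and free RNA, so these values are descriptive.

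Promoters from RefSeq (GRCm38.p6), which run from 250 bases before a gene's start to 50 after it, were found for 60 of the 72 CYP genes, and 1 entry of Cyp2c39 that started outside the annotated gene by more than 1000 bases was left out. They were searched over their whole length on both strands for TATAAA, a form of the TATA box, ATCAAAG, a form of the TCF site, CAAAGTCCA, a form of the HNF4A site, and GCGTG, the core of the aryl hydrocarbon receptor site. ATCAAAG and CAAAGTCCA have CAAAG in common, and a stretch may match both. The 60 CYP genes had 65 promoter entries, and a gene was counted once if any of its entries matched. Shares of all promoters are over 32851 entries, so the 2 kinds of share differ in unit. TATAAA was found for 27 of the 60 CYP genes (45.0%) and in 13.6% of all promoters. It was found for 14 of 18 PC genes and 3 of 10 PP genes with a promoter. ATCAAAG was in 2 CYP promoters, those of the PC genes Cyp2c29 and Cyp2c39, and in 3.73% of all promoters. CAAAGTCCA was in 7 CYP promoters and 0.475% of all, and GCGTG in 12 (20.0%) and 32.4% of all. These are matches of letters and not sites of binding. These stretches are shown because they come from 6 of the PC genes above, with the matched letters in capitals: chr19:39286946-39286992 (+) for Cyp2c29, chr19:39510706-39510752 (+) for Cyp2c39, chr7:140763768-140763813 (+) for Cyp2e1, chr9:57683659-57683704 (-) for Cyp1a2, chr7:26835290-26835335 (+) for Cyp2a5 and chr19:39463081-39463126 (-) for Cyp2c38.
Cyp2c29: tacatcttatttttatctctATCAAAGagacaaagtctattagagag
Cyp2c39: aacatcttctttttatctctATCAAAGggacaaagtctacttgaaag
Cyp2e1: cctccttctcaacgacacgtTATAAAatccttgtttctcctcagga
Cyp1a2: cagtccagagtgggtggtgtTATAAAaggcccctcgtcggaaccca
Cyp2a5: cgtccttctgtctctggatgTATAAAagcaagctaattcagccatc
Cyp2c38: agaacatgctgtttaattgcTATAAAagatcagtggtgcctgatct

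Hepatocytes of the 2 libraries were then set side by side by label. With 2-fold as the limit of size and at least 20 summed counts, 9 of 55 CYP genes were at least 2-fold higher in the library labelled AEG-1DMAC, where 1.78% of 12883 genes were, and 1 was at least 2-fold lower, where 3.13% were (4.91% either way). Among genes at 10 CPM or more, 3 of 33 CYP genes and 1.06% of all genes were past 2-fold either way. The median size of the log2 ratio was 0.37 over the 55 CYP genes and 0.19 over the 12883 genes, and 0.37 and 0.14 over those at 10 CPM or more. The ratio was above 0 for 26 of the 55, and its counting interval lay above 0 for 22 and below 0 for 20, so the CYP genes went both ways. The intervals cover counting error only, not the spread between mice.

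CYP2B genes had the widest gap. Cyp2b9, a steroid hydroxylase, had 1009 counts (16.8 CPM) in hepatocytes of the library labelled AEG-1DMAC and 67 counts (1.04 CPM) in those of the library labelled AEG-1fl/fl, a log2 ratio of 4.02 (95% interval 3.66 to 4.40). The ratio was 3.90, 4.20 and 5.21 in the PC, midlobular and PP zones, so it held in each zone. Cells with at least 1 Cyp2b9 count made up 24.2% of hepatocytes in the library labelled AEG-1DMAC (305 of 1261) and 2.20% in the library labelled AEG-1fl/fl (29 of 1317). Among the 1098 and 1087 hepatocytes with at least 5000 counts, each thinned to 5000 counts, the shares were 6.92% and 0.276%. In macrophages, which should lack Cyp2b9, the shares before thinning were 4.48% and 0.162%. Cyp2b13 had 64 and 5 counts (log2 ratio 3.78, interval 2.49 to 5.45), and Cyp2b10 had 179 and 51 counts, or 2.99 and 0.791 CPM (1.92, interval 1.46 to 2.39). For Cyp2b10 the ratio was 1.55, 3.05 and 1.72 in the PC, midlobular and PP zones.

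The 3 CYP2B promoters are shown because these genes had the largest library ratios. The 250 bases before the start of Cyp2b9 (chr7:26173159-26173408, +) and Cyp2b13 (chr7:26061245-26061494, +) were identical at 248 positions (99.2%) and differed by T48C and C104T, counted from the first base shown with the base of Cyp2b9 first. Capitals mark those 2 positions. The stretch of Cyp2b10 (chr7:25897408-25897657, +) was 70.4% identical over 260 alignment columns.
Cyp2b9: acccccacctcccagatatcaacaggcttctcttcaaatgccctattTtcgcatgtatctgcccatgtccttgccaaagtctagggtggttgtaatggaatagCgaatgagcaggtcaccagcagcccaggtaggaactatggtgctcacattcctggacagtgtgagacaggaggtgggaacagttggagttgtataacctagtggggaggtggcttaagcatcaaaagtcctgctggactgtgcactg
Cyp2b13: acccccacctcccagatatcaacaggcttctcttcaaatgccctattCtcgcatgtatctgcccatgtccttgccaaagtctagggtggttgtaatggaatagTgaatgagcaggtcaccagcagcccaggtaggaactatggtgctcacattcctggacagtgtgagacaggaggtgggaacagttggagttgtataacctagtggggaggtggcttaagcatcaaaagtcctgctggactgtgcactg
Cyp2b10: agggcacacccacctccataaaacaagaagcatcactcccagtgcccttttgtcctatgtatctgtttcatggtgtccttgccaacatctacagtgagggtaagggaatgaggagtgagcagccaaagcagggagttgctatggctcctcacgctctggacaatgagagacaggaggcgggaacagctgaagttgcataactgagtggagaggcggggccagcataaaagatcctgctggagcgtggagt
Of all 50-base windows in their transcripts, 11.2% in Cyp2b9 and 27.3% in Cyp2b13 were also found exactly in another gene. The probe sequences were not available, so whether probes tell these 2 genes apart was not tested, and they are uncertain as separate measurements. Over the 72 genes, 61 shared at least 1 such window and 24 shared at least 20%, and Cyp2c40, Cyp2c69 and Cyp2c67 shared 72.1%, 54.8% and 52.8%.

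The other genes at least 2-fold higher in the library labelled AEG-1DMAC came from CYP2C, CYP2A, CYP1 and CYP4B. Cyp2c29 had 559.7 and 164 CPM, a log2 ratio of 1.77 (95% interval 1.74 to 1.80), with 1.84, 1.65 and 1.94 in the PC, midlobular and PP zones. Cyp2c37 had a ratio of 1.53 (1.39 to 1.67), Cyp2a5 of 1.49 (1.25 to 1.74) and Cyp1a2, at 272 and 133 CPM from 16300 and 8562 counts, of 1.03. Cyp1a1 had 47 and 22 counts and a log2 ratio of 1.20 with a lower bound of 0.44. Cyp4b1, the endothelial gene above, had 632 and 314 counts in hepatocytes (1.11, 0.92 to 1.31), where endothelial markers summed to 166 and 105 CPM. Their part in the Cyp4b1 ratio was not tested. The 1 gene at least 2-fold lower was Cyp1b1, with 20 and 46 counts (log2 ratio -1.10, interval -1.93 to -0.31), where stellate markers in hepatocytes summed to 266 and 248 CPM.

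**Figure D4:**
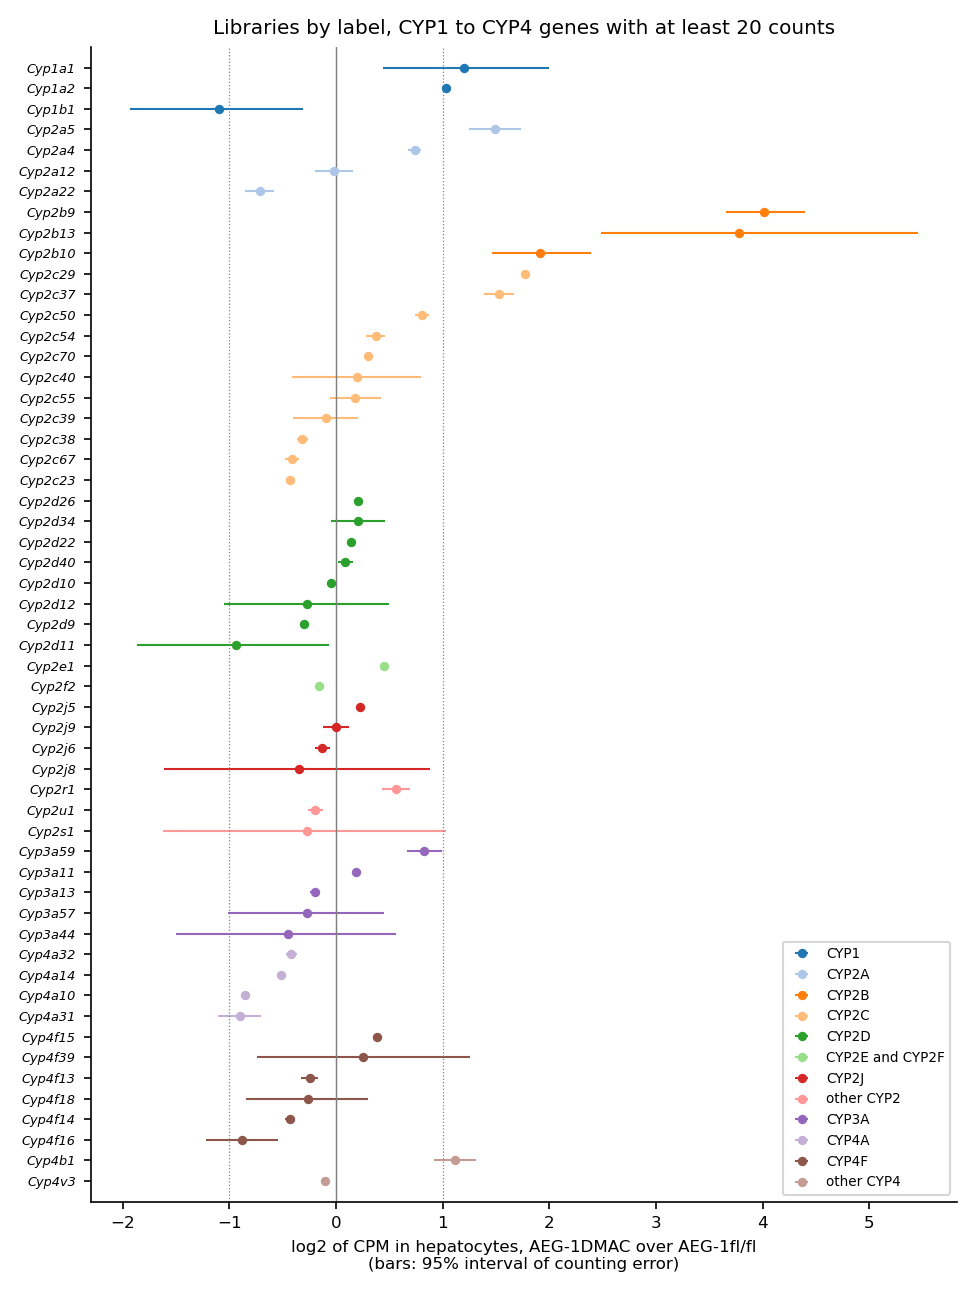
Log2 ratio of the library labelled AEG-1DMAC over the library labelled AEG-1fl/fl in hepatocytes (horizontal axis) for the 55 CYP genes with at least 20 summed counts, colored by subfamily, with the 95% counting interval as a bar and dotted lines at 2-fold. Cyp2b9 and Cyp2b13 stand at 4.02 and 3.78, Cyp2c29 at 1.77, and all CYP4A genes shown lie below 0, between -0.90 and -0.42.

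Other abundant genes had smaller ratios. Cyp2e1 had a library log2 ratio of 0.45, Cyp3a11 of 0.18, Cyp2d26 of 0.20 and Cyp2d22 of 0.14. All 4 CYP4A genes had a ratio below 0, with a median of -0.69: Cyp4a10 was at 218 and 393 CPM (log2 ratio -0.85, interval -0.88 to -0.82), and Cyp4a14 at 178 and 255 CPM (-0.52). In the PC, midlobular and PP zones the ratio of Cyp4a10 was -0.63, -0.74 and -1.26. Cyp2f2 was below 0 overall at -0.16, with 1.29 in the PC zone, 0.31 in the midlobular zone and -0.33 in the PP zone. Median library log2 ratios were 1.03 for CYP1, 0.36 for CYP2A, 3.78 for CYP2B, 0.19 for CYP2C, 0.02 for CYP2D, -0.19 for CYP3A and -0.26 for CYP4F. Of the CYP genes called PC, 13 of 21 had a ratio above 0, and of those called PP 4 of 12 did, where 47.0% and 53.8% of all genes called PC and PP did. The PC markers themselves summed to 3238 CPM in the library labelled AEG-1DMAC and 1941 CPM in the library labelled AEG-1fl/fl (log2 ratio 0.74), and the PP markers to 9074 and 8203 CPM (0.15). The part of this in the CYP ratios was not tested.

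Genes that work with the CYP enzymes were described from gene lists. Of 8 genes for electron and heme supply or heme breakdown, 3 were PC and 0 PP, against 9.94% and 9.98% of all genes. They were cytochrome b5 (Cyb5a, log2 ratio 0.42 ± 0.08, edgeR adjusted p = 0.00612), its mitochondrial form Cyb5b (0.31 ± 0.07, edgeR adjusted p = 0.0148) and the heme oxygenase Hmox1 (0.42 ± 0.07, edgeR adjusted p = 0.00431), which breaks heme down. In the libraries labelled AEG-1DMAC and AEG-1fl/fl, macrophage markers summed to 554 and 446 CPM in PC and 449 and 347 CPM in PP hepatocytes. Their part in the Hmox1 ratio was not tested. Por, which feeds electrons to all of these CYP enzymes, was the 1 gene of the 8 past 2-fold between libraries, at 235 CPM in the library labelled AEG-1DMAC and 502 CPM in the library labelled AEG-1fl/fl (log2 ratio -1.09, 95% interval -1.12 to -1.07). Over all genes, 4.91% were past 2-fold. Alas1, the first enzyme of heme synthesis, was at 687 and 1190.1 CPM (-0.79). The ratios of Por and Alas1 were thus below 0, while the CYP genes together took up a larger share of counts in the library labelled AEG-1DMAC.

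Of 20 transcriptional regulators tested for zone, 4 were PC and 1 PP, against 9.94% and 9.98% of all genes. The PC genes were Ahr, the aryl hydrocarbon receptor (1.96 ± 0.07, edgeR adjusted p = 4.66e-07), Nr1i3, the constitutive androstane receptor (1.36 ± 0.07, edgeR adjusted p = 4.73e-06), Nfe2l2 (0.39 ± 0.07, edgeR adjusted p = 0.00512) and Ppara (0.30 ± 0.07, edgeR adjusted p = 0.0187). Hnf4a was PP (-0.27 ± 0.07, edgeR adjusted p = 0.0326), a call made in 2 of the 8 alternatives to this fit. Between libraries, 2 of 21 regulators were past 2-fold, where 4.91% of all genes were. Both were higher in the library labelled AEG-1DMAC: Bcl6, a transcriptional repressor, at 34.0 and 8.01 CPM (log2 ratio 2.09, interval 1.95 to 2.23), and Nr0b2, which represses bile acid synthesis, at 68.8 and 27.2 CPM (1.34, 1.26 to 1.42). Ahr, Nr1i3 and Ppara had library ratios of 0.29, 0.11 and 0.03.

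Of 10 other PPAR target genes, 6 were PC, against 9.94% of all genes, and 2 were past 2-fold between libraries, against 4.91%. Both were lower in the library labelled AEG-1DMAC: Acot2 (log2 ratio -1.37) and Fgf21 (-1.08). The list had a median library ratio of -0.46, with 2 of 10 above 0, beside the CYP4A median of -0.69. Targets of the constitutive androstane and pregnane X receptors other than CYP genes had a median of -0.20 over 4 genes, beside 3.78 for CYP2B, and 3 of the 4 were PC. The 2 measured aryl hydrocarbon receptor targets outside CYP1 had a median of 0.26, beside 1.03 for CYP1. Of 8 CYP genes known to be higher in female mouse liver, 6 had at least 20 counts, 4 of these had a library ratio above 0, 2 of them past 2-fold (Cyp2b9 and Cyp2b13), and the median was 0.47. Within the CYP set defined above, the 2 genes known to be higher in males, Cyp2d9 and Cyp2u1, had a median of -0.25. The 6 other male-biased genes had a median of -0.48 with 2 above 0. They include Cyp4a12a (log2 ratio -0.81) and Cyp7b1 (-0.15), which are CYP genes outside that set by symbol or family. Of the 6, 1 was past 2-fold each way: Elovl3 stood at 89.3 and 31.1 CPM (1.52) and Slco1a1 at 7.92 and 50.4 CPM (-2.67). Transcripts of 4 Y-linked genes were at similar levels in hepatocytes of both libraries, for example Ddx3y at 59.7 and 52.2 CPM. The part of the sex of the mice in these ratios was not tested.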

How the data were processed

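The authors made single-cell libraries from dissociated, fixed livers with the 10x Genomics probe-based kit. The deposited files hold raw molecule counts per gene and cell barcode, made by the authors with Cell Ranger 7.1.0 on mm10 (per the file headers and the submitters' processing notes, which also name Seurat). How barcodes were called is not given in the sources used here. Barcodes under 100 genes or above 10% mitochondrial counts were dropped, which left 2571 and 3508 cells (median depth before filtering 12742 and 7686 counts). Cells were gated on marker scores with no Cyp gene. Cells that met the limits of no type, by weak marker scores or by markers of several types, were left out, and no doublet caller was run. Counts were summed per library, type and zone. Zones and types were tested with edgeR 4.0.16 (TMM, quasi-likelihood test, Benjamini-Hochberg adjustment over all genes, threshold 0.05, R 4.3.3) with the library as a block, since both zones and all types come from the same library. Nothing says how many livers stand behind a library, so p-values measure only the spread between these sums. Libraries were compared by CPM, Poisson intervals and the exact interval of the ratio of 2 counts, with no test. The CYP genes and all lists were chosen with earlier results of these data known. Named genes are the 12 with most hepatocyte CPM, those above hepatocytes in another type, the 8 steepest to each side by zone, those with at least 1000 counts and no zone call, those past 2-fold between libraries, and Cyp1a2, Cyp2e1 and Cyp2f2. Others named, such as Cyp2d22 in other cell types, were chosen after their values were seen. Scripts ran on Python 3.11.15 with scanpy 1.11.5, and the tests were checked on simulated data. Alternatives were DESeq2 1.42.0, other filters, zone cuts, markers and gates. Scaling without TMM was added after seeing the data.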

Additional observations from a re-analysis of the deposited data

Results flagged for a closer look

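By plain CPM, Cyp2d26 had zone ratios of opposite sign in the libraries. Its log2 ratio of PC over PP hepatocytes was 0.0403 in the library labelled AEG-1DMAC and -0.414 in the library labelled AEG-1fl/fl. The counting interval of each lay on its own side of 0. In the fit without TMM factors the median of all genes was 0.183, above both ratios, so the opposite signs depend on the scale. The difference between the libraries was not tested. Cyp4f18 stood at 231.7 CPM in neutrophil-like cells of the library labelled AEG-1fl/fl, from 28 counts in 43 cells, a cell type left out of the comparisons because the library labelled AEG-1DMAC held 4 such cells. Those 4 cells had 0 counts of Cyp4f18, which allows up to 415.3 CPM.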

How the results depend on the processing

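Of the zone results, leaving the library out of the fit (no replicate block) gave 10 PC and 3 PP genes in place of 21 and 12, and 312 genes in all in place of 2401. The block was used because both zones of a library come from the same source. Under the other alternatives 19 to 27 PC and 9 to 13 PP genes were called. DESeq2 called 20 and 9, and 1092 genes of all. Of 3 electron and heme, 4 regulator, 6 PPAR target and 3 constitutive androstane and pregnane X receptor target genes called PC, 0, 2, 0 and 1 were called without the block, 5, 8, 9 and 3 without TMM, and 1, 3, 6 and 2 by DESeq2. For named zone genes, 260 of 280 alternative values stayed on the same side of the threshold, 16 lost the call (14 of them without the block), 4 gained it and no called value turned. The direction turned under at least 1 alternative, single libraries included, for the uncalled Cyp2d22, Cyp2d26, Cyp2j6 and Cyp4f13. The PP call of Hnf4a held in 2 of 8 alternatives (no filter on low counts and stricter cell filter). Of 166 alternative values of library ratios of named genes, 90 lay outside the counting interval of the reported ratio, 76 within it, and no ratio past 2-fold turned in direction, while those of Cyp2d10 and Cyp2f2 did under some alternatives. Pairs above hepatocytes numbered 12 to 19 (13 as reported) and pairs below 189 to 257 (214). Genes at least 2-fold higher in the library labelled AEG-1DMAC numbered 7 to 9, and genes 2-fold lower rose from 1 to 4 with the mean over cells of counts per 10000 and to 3 in the PP zone. The cause was not tested. No paired analysis was possible because each label has 1 library. The depth limits low genes: Cyp2b13, Cyp1a1 and Cyp1b1 rest on fewer than 70 counts a library.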
